A study of Mus musculus with 6 samples.

Results

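The genes of sterol and fatty acid synthesis were examined in bone-marrow-derived macrophages (BMDMs), which are macrophages grown in culture from marrow under M-CSF, a macrophage growth factor. The 36 genes were listed by function and matched by symbol in the authors' annotated table. All 36 were found and all 36 were among the 15903 genes tested. They were divided by role into 18 enzymes of the sterol arm, 6 genes of SREBP control and sterol transport, and 12 genes of the fatty acid arm. Marrow came from 3 *Cx3cr1*GFP mice on the C57BL/6J background, so control and NaCl-treated cells alike carried the GFP allele at the *Cx3cr1* locus. Cells of each mouse were left unstimulated (control, n = 3) or received 62 mM additional NaCl for 24 h (NaCl, n = 3), and only adherent cells were sequenced. The age and sex of the mice were not given in the sources used here. The comparison asks how excess salt changed transcript levels in these cells.

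Total counts ranged from 8520433 to 20123570 in the control libraries and from 4088065 to 11610020 in the NaCl libraries, and NaCl replicate 3 was the smallest. The 36 genes together held between 0.169% and 0.174% of the counts of a control library and between 0.174% and 0.201% of those of a NaCl library. The macrophage identity of the cells was checked on 8 markers, all of them detected. Their summed level, in counts relative to library size (CPM), was 14791 to 16708 CPM in control and 23440 to 30718 CPM after NaCl, without overlap. That sum is mostly *Lyz2*, at 9817 ± 524 CPM in control cells against 19148 ± 3609 CPM after NaCl (SD, n = 3 each). Of the 8 macrophage markers 2 were higher in edgeR with the mouse as a replicate block, *Lyz2* and *Csf1r*, and 2 were lower, *Mertk* and *Mrc1*, so the list did not move one way. The summed level of 4 monocyte markers was 99.1 to 222 CPM in control and 44.8 to 270 CPM in NaCl, and that of 6 neutrophil markers 197 to 422 CPM in control and 207 to 316 CPM in NaCl, so both sums overlapped between the groups. The sums of dendritic cell and B cell markers, at most 2.62 and 10.4 CPM in a library, overlapped too. In the same fit 2 of the 6 neutrophil markers were lower and 0 of the 4 monocyte markers passed. Among markers of fat cells, which make fatty acids in quantity, *Adipoq*, *Plin1* and *Lep* had 0 counts in the 6 libraries and *Cidec* had 5. The part of the macrophage marker differences in the results for lipid genes was not tested. In bulk RNA, fewer cells of a type and less RNA per cell cannot be told apart.

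Cholesterol is built from acetyl-CoA through mevalonate, isoprenoid diphosphates, squalene and lanosterol, and fatty acids are built from the same acetyl-CoA by carboxylation, chain assembly, elongation and desaturation. Both arms answer to the sterol regulatory element-binding proteins (SREBPs), transcription factors which are held in the endoplasmic reticulum by INSIG proteins when sterols are plentiful and escorted by SCAP to the Golgi, where they are cut and freed, when sterols are scarce. SREBP-2 acts mainly on sterol genes and SREBP-1 mainly on fatty acid genes. In macrophages these pathways supply membrane lipid, and they are known to shift with cholesterol load and activation.

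Differences between NaCl and control cells were small over this machinery, and apart from *Fasn* under a lower count minimum (adjusted p = 0.0271 in edgeR at a total of 1) a gene passed only when the groups were compared within mice. In edgeR's quasi-likelihood test of NaCl against control, 0 of the 36 genes were higher and 0 were lower at an adjusted p-value under 0.05, where 0.478% of all genes tested were called higher and 0.176% lower. At an unadjusted p-value under 0.05 the same test counted 7 genes higher and 0 lower, or 19.4% and 0% of the members, where 6.63% and 6.01% of all genes were. DESeq2 without the block, which called 1.54% of all genes higher and 0.975% lower, also called 0 of the 36, as did limma-voom. With the mouse as a replicate block, which sets each NaCl library against the control library of the same mouse, edgeR called 4 genes higher, namely *Acat2*, *Scap*, *Fasn* and *Fads2*, and 1 gene lower, *Hmgcs1*. These are 11.1% and 2.78% of the members, where this fit called 4.6% of all genes higher and 4.3% lower. DESeq2 with the block called 3 of these 5, *Scap*, *Fasn* and *Fads2*, and neither *Acat2* nor *Hmgcs1*, where it called 2.84% of all genes higher and 2.23% lower. All 5 changes were below 2-fold, with fitted folds from 1.41 for *Scap* to 1.68 for *Fads2* among the 4 that were higher and 0.743 for *Hmgcs1*. The median log2 fold change without the block was 0.15 over the 36 members and -0.01 over all genes tested.

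**Figure D1:**
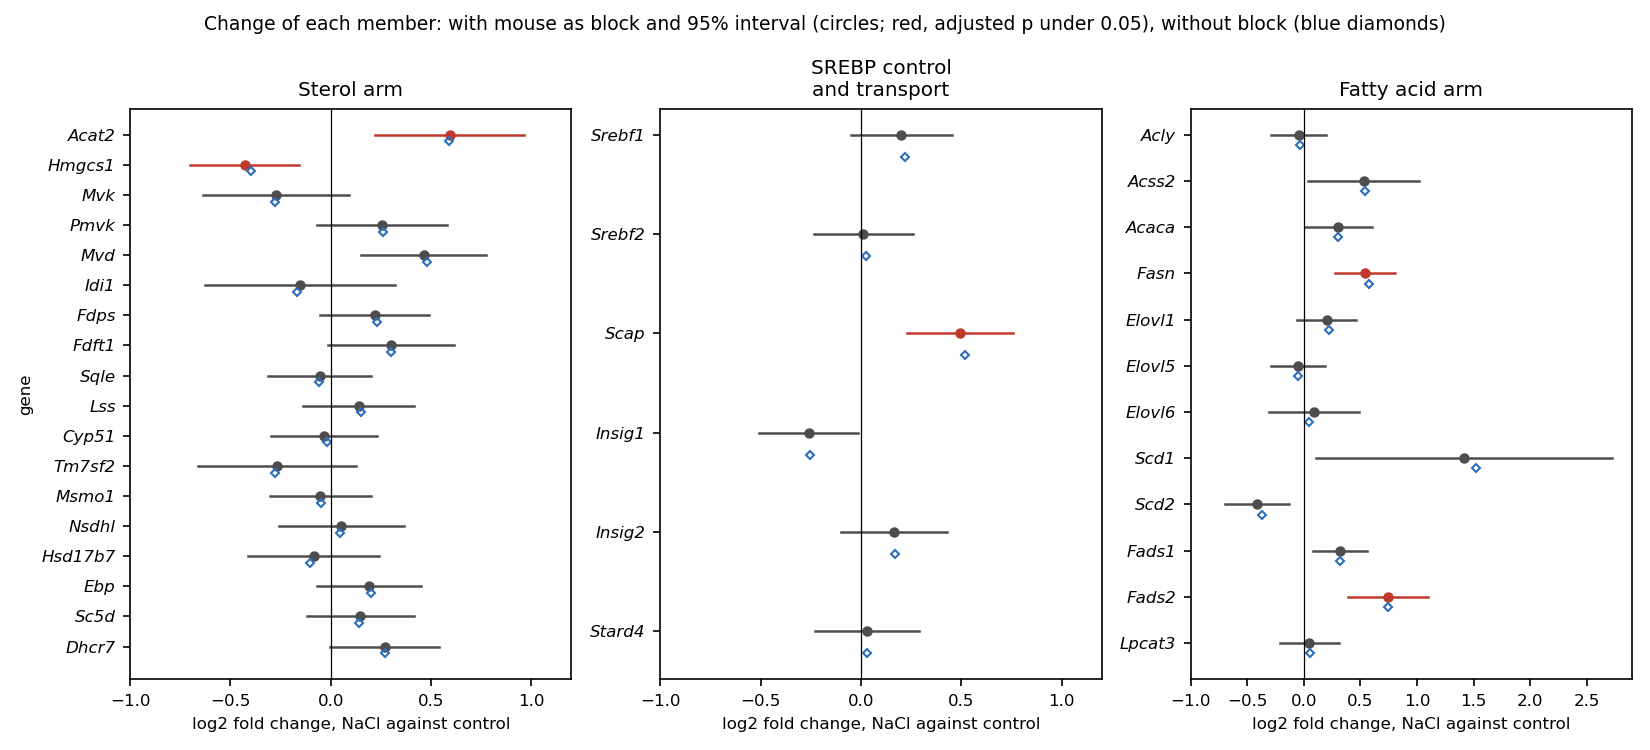
Log2 fold change of each of the 36 genes, NaCl against control, in the 3 role groups. Circles with bars give the edgeR estimate with the replicate block of mice and its 95% interval (red where the adjusted p is under 0.05), and blue diamonds give the estimate without the block. The bars of *Acat2*, *Scap*, *Fasn*, *Fads2* and *Hmgcs1* are red, and 22 of the 36 intervals lie within 1.5-fold of no change, while the bar of *Scd1* is the widest at 2.61 log2 units.

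How much change the data leave room for was read from the intervals of the blocked fit. For 22 of the 36 genes the 95% interval of the fold change lay within 1.5-fold in either direction. These were 11 of the 18 sterol arm genes, 5 of the 6 control and transport genes and 6 of the 12 fatty acid arm genes. The interval reached a 1.5-fold fall for 5 genes and a 1.5-fold rise for 9. For the 14 genes whose interval reached 1.5-fold, a change of that size could not be told from a smaller one with these 3 mice. Interval widths ranged from 0.479 to 2.61 on the log2 scale, and the widest belonged to *Scd1*, which had 3 to 11 counts per library.

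The upstream sequence of 4 of the 5 genes called with the block is shown because sterol responsiveness is classically read from the proximal promoter, and these 4 differ in what it holds. Promoters came from RefSeq (build GRCm38.p6), which had an entry for 29 of the 36 genes. *Fdps*, *Fdft1*, *Sqle*, *Stard4*, *Scd1*, *Scd2* and *Fads1* had none in the table. The printed runs end 1 base before the annotated start and begin 180 bases before it, at chr13:119690171-119690350, plus strand, for *Hmgcs1*, chr11:120824548-120824727, minus strand, for *Fasn*, chr17:12960726-12960905, minus strand, for *Acat2* and chr9:110333176-110333355, plus strand, for the downstream of the 2 starts of *Scap*. Each is written 5′ to 3′ on the gene's strand, and capitals mark matches, on either strand, to the sterol regulatory element TCACNCCAC, the CCAAT box CCAAT and the GC box GGGCGG.
Hmgcs1: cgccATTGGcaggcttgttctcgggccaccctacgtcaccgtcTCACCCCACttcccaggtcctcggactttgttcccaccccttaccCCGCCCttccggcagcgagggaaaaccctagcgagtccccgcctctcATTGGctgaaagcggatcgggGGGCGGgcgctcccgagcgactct
Fasn: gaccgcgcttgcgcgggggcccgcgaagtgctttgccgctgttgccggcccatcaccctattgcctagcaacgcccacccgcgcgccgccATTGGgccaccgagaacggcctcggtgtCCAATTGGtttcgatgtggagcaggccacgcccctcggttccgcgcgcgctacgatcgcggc
Acat2: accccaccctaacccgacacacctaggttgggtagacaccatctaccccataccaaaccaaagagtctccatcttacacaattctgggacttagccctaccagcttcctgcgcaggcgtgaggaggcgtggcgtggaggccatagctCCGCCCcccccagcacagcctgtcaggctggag
Scap: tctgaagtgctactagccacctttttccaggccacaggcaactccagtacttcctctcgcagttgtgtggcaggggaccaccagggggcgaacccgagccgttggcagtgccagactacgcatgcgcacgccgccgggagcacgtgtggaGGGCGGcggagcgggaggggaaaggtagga

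Of these 4 promoters only that of *Hmgcs1* held the string TCACNCCAC, whose first base lay 137 bases before the start. It also held 2 CCAAT boxes and 2 GC boxes in the printed run. That of *Fasn* held 3 CCAAT matches, 2 of them overlapping on opposite strands, while *Acat2* and *Scap* each held 1 GC box and no CCAAT box there. Over windows of 250 bases before the start, on both strands, the element TCACNCCAC occurred in 1 of the 29 genes, against 1.05% of all 32851 promoters and 1.22% of the 10844 genes tested that had an entry. The CCAAT box occurred in 23 of the 29, comprising 14 of 15 sterol arm genes, 4 of 5 control and transport genes and 5 of 9 fatty acid arm genes, against 33.8% of all promoters and 40.4% of those genes. The GC box occurred in 24 of the 29, against 32.7% of all promoters and 61.2% of those genes. The E-box CACGTG, which reads the same on both strands, occurred in 6 of the 29, against 6.02% of all promoters and 9.79% of those genes. Among the 4 printed runs only that of *Scap* held it. Its first base lay 40 bases before the start, and it is not in capitals there. A gene with several starts was counted where any of its windows held the letters. These matches describe letters in a window and are not evidence of binding. Only these strings were searched, so a promoter without TCACNCCAC may still hold another form of the sterol regulatory element.

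In the sterol arm, *Acat2* rose and *Hmgcs1* fell in the edgeR fit blocked by mouse, and the other 16 enzymes did not pass. DESeq2 with the same block called none of the 18, with adjusted p-values of 0.188 for *Acat2* and 0.149 for *Hmgcs1*. The first steps join acetyl-CoA units. *Acat2*, the cytosolic thiolase that makes acetoacetyl-CoA, was at 8.19, 7.88 and 8.27 CPM in control replicates 1, 2 and 3 and at 9.83, 12.8 and 14.4 CPM in NaCl replicates 1, 2 and 3. Every NaCl library lay above every control library, as for 8.92% of all genes tested. Without the block, edgeR put the log2 fold change at 0.59 ± 0.20 (SE) with an adjusted p of 0.257, and with it at 0.59 ± 0.18 (SE) with one of 0.0366. Without mouse 1 the adjusted p from the blocked edgeR fit was 0.0425, without mouse 2 it was 0.0699 and without mouse 3 it was 0.184. Of the 75-base windows of the *Acat2* transcripts, 33.9% also occur in *Acat3* or *Tcp1*, so reads from there may be missing from its count. *Acat3* itself had 16 counts over the 6 libraries, and *Tcp1* had a log2 fold change of 0.11 (adjusted p = 0.827, edgeR without the block).

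*Hmgcs1* encodes the synthase that adds the next acetyl-CoA to give HMG-CoA, and its transcript is a standard readout of SREBP activity. It was at 56.4, 44.3 and 43.1 CPM in control cells against 47.2, 26.5 and 35.5 CPM after NaCl. The groups overlapped, since NaCl replicate 1 lay above control replicates 2 and 3, yet the NaCl library was the lower of the pair in each of the 3 mice. The log2 ratio of NaCl over control was -0.26, -0.74 and -0.28 in mice 1, 2 and 3. Without the block, edgeR put the log2 fold change at -0.40 ± 0.21 (SE) with an adjusted p of 0.48, and with it at -0.43 ± 0.13 (SE) with one of 0.0401. Without mouse 1 or mouse 2 the blocked fit no longer passed (adjusted p = 0.113 and 0.22, edgeR), and without mouse 3 it did (0.0394). On the opposite strand *Gm48342* overlaps 12.1% of its exonic bases, which an unstranded library cannot separate, and *Gm48342* had 5 counts in all.

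The kinases and the decarboxylase that carry mevalonate to isopentenyl diphosphate had estimates of both signs, and none passed. *Mvk*, mevalonate kinase, had a log2 fold change of -0.28 ± 0.20 (SE), *Pmvk*, phosphomevalonate kinase, one of 0.26 ± 0.17 (SE) and *Mvd*, the decarboxylase, one of 0.48 ± 0.18 (SE). *Mvd* was the nearest of the 3 to the threshold, with an adjusted p of 0.295 in edgeR without the block and 0.0545 with it. Its level was 16.1 ± 0.937 CPM in control cells against 22.2 ± 4.26 CPM after NaCl (SD, n = 3 each), with no overlap. The NaCl libraries of *Pmvk* and *Dhcr7* also lay above all of their controls. With *Acat2* and *Mvd* this makes 4 of the 18 sterol arm genes (22.2%), where 8.92% of all genes tested did so. In 0 of the 18 did all 3 NaCl libraries lie below the controls, as 10.1% of all genes did.

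The isoprenoid and squalene steps and those after lanosterol had no gene past the threshold. *Sqle*, squalene epoxidase and a rate-limiting step, was at 41.8, 55.1 and 53.3 CPM in control cells against 40.9, 46.8 and 57.7 CPM after NaCl. These values interleave, and the blocked log2 fold change of -0.05 had a 95% interval from -0.31 to 0.20, which lies within a 1.5-fold change. *Cyp51*, the lanosterol demethylase, and *Msmo1*, the methylsterol oxidase, had blocked log2 fold changes of -0.03 and -0.05, with intervals from -0.30 to 0.23 and from -0.30 to 0.20. For *Fdps*, which makes farnesyl diphosphate, and *Fdft1*, squalene synthase, the blocked estimates were 0.22 and 0.30. Of *Fdft1* 18.3% of exonic bases overlap *Ctsb* on the opposite strand, a gene with 919614 counts here, and 26.7% of those of *Fdps* overlap *Gm43738* on the same strand. The remaining enzymes, which are the isomerase *Idi1*, the cyclase *Lss*, the reductases *Tm7sf2*, *Hsd17b7* and *Dhcr7*, the dehydrogenase *Nsdhl*, the isomerase *Ebp* and the desaturase *Sc5d*, had blocked log2 fold changes from -0.27 for *Tm7sf2* to 0.27 for *Dhcr7*, and adjusted p-values in edgeR from 0.231 for *Dhcr7* to 0.891 for *Nsdhl*. Over the whole arm the median log2 fold change without the block was 0.09, with 10 estimates above 0 and 8 below. All genes tested had 7820 estimates above 0 and 8083 below. In all 3 mice 8 genes of the arm were higher and 2 lower, where 20.1% and 23.4% of all genes tested were.

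Per kilobase of exon, control levels in the sterol arm ranged from 1.55 CPM for *Idi1* and 2.01 CPM for *Tm7sf2* to 16.97 CPM for *Ebp*. *Msmo1* (11.7), *Cyp51* (11.2) and *Hmgcs1* (10.4) followed *Ebp*, in CPM per kilobase. In NaCl the same scale gave 11.4 for *Msmo1*, 11.2 for *Cyp51* and 7.91 for *Hmgcs1*. There *Hmgcs1* stood below *Mvd* (8.65 in control and 11.96 in NaCl), and also below *Pmvk* (9.01), *Sqle* (8.74) and *Fdps* (8.26). The order of these neighbours was not tested.

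**Figure D2:**
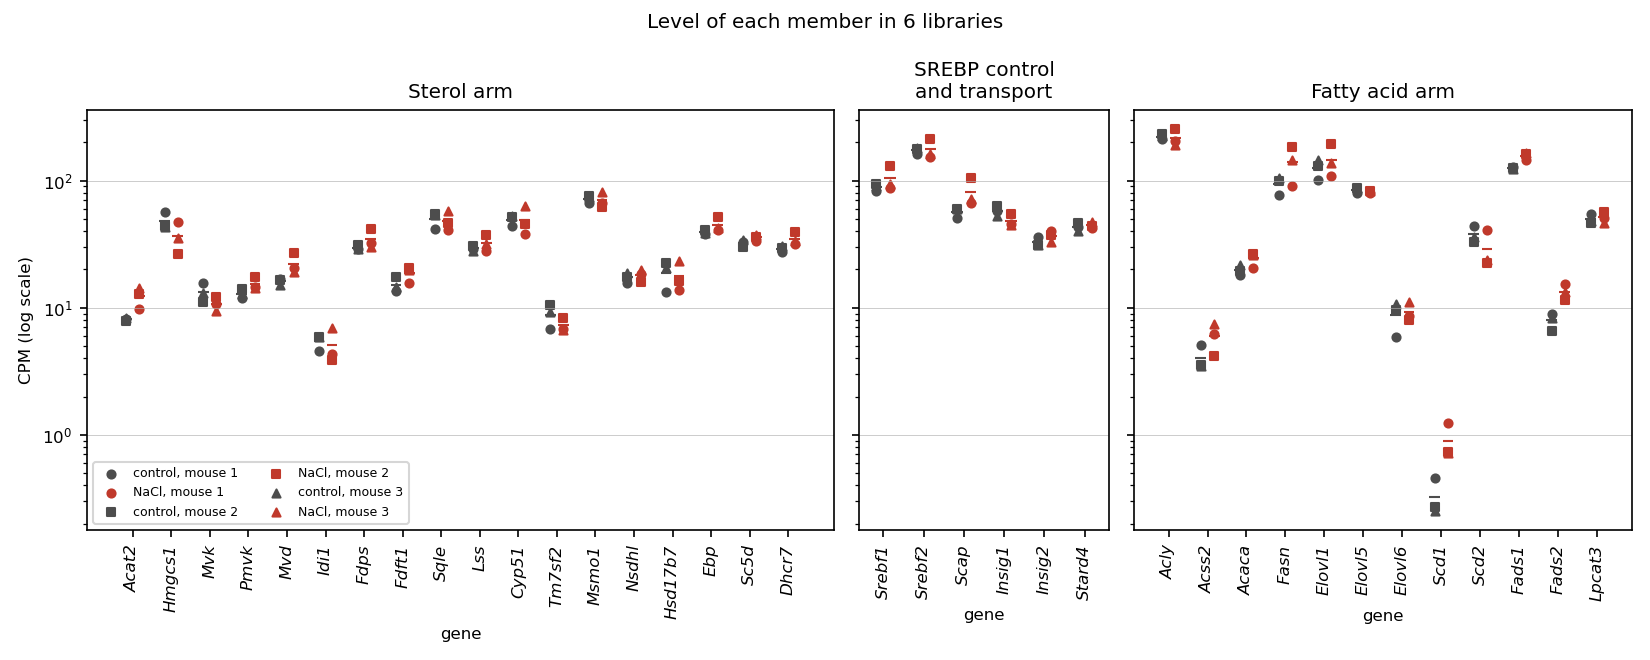
CPM of each gene in every library, on a log axis, with control in grey and NaCl in red, the marker shape giving the mouse and short lines the group means. For 8 of the 36 genes (22.2%) all 3 NaCl libraries lie above the controls, against 8.92% of all genes tested. These are *Acat2*, *Pmvk*, *Mvd*, *Dhcr7*, *Scap*, *Scd1*, *Fads1* and *Fads2*. For 0 of the 36 they all lie below, against 10.1% of all genes. *Scd1* lies lowest, with at most 1.23 CPM in a library.

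Among the genes of SREBP control, *Scap* rose in the fit blocked by mouse, and the transcripts of the 2 transcription factors and the 2 retention proteins did not pass. *Scap*, the sterol sensor that escorts SREBP, was at 50.6, 59.3 and 60.3 CPM in control cells against 66.5, 105 and 71.1 CPM after NaCl. All NaCl libraries were above all control libraries, and NaCl replicate 2 stood highest. The log2 ratio in mice 1, 2 and 3 was 0.39, 0.83 and 0.24. Without the block, edgeR put the log2 fold change at 0.52 ± 0.18 (SE) with an adjusted p of 0.288, and with it at 0.49 ± 0.13 (SE) with one of 0.013, and DESeq2 with the block gave an adjusted p of 0.0337. In the blocked edgeR fit the adjusted p was 0.0627 without mouse 1, 0.0546 without mouse 2 and 0.00268 without mouse 3. On the opposite strand *5830462I19Rik*, with 27 counts in all, overlaps 13.2% of the exonic bases of *Scap*.

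*Srebf2*, which encodes SREBP-2, was at 161, 178 and 181 CPM in control cells against 155, 212 and 162 CPM after NaCl, and the groups overlapped. Its blocked log2 fold change was 0.01, with a 95% interval from -0.23 to 0.26. *Srebf1*, which encodes SREBP-1, was at 83.3, 94.4 and 91.1 CPM in control cells against 87.9, 131 and 93.4 CPM after NaCl, with NaCl replicate 2 apart from the others. Its blocked log2 fold change was 0.20 (interval -0.05 to 0.45, adjusted p = 0.364 in edgeR). The counts do not separate the isoforms of either gene.

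*Insig1*, a retention protein whose own transcript responds to SREBP, was at 57.6, 62.9 and 53.0 CPM in control cells against 45.4, 55.0 and 44.6 CPM after NaCl. It was lower in NaCl within each of the 3 mice, but the groups overlapped, since NaCl replicate 2 exceeded control replicate 3, and the blocked log2 fold change of -0.26 ± 0.12 (SE) gave edgeR an adjusted p of 0.20. *Insig2*, its paralog, was at 35.8, 31.4 and 31.0 CPM in control cells against 39.9, 37.1 and 33.1 CPM after NaCl, with a blocked log2 fold change of 0.17 ± 0.13 (SE, adjusted p = 0.503 by edgeR). *Stard4*, which carries cholesterol between membranes and is a sterol-regulated gene, had 43.4 ± 3.13 CPM in control cells against 44.4 ± 2.61 CPM after NaCl (SD, n = 3 each).

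In the fatty acid arm *Fasn* and *Fads2* rose in the fit blocked by mouse, and the other 10 genes did not pass. Acetyl-CoA is supplied by *Acly* from citrate and by *Acss2* from acetate. *Acly* had 222 ± 8.71 CPM in control cells against 216 ± 32.5 CPM after NaCl (SD, n = 3 each), with a blocked log2 interval from -0.29 to 0.19. *Acss2* was at 4.04 ± 0.93 and 5.95 ± 1.65 CPM, with a blocked log2 fold change of 0.53 ± 0.24 (SE, adjusted p = 0.184 by edgeR).

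*Fasn*, the fatty acid synthase that builds palmitate, was at 77.7, 99.1 and 105 CPM in control cells against 90.7, 185 and 145 CPM after NaCl. The groups overlapped because NaCl replicate 1 lay below control replicates 2 and 3, whereas the log2 ratio inside a mouse was 0.22, 0.90 and 0.47 for mice 1, 2 and 3. Without the block, edgeR put the log2 fold change at 0.58 ± 0.24 (SE) with an adjusted p of 0.351, and with it at 0.54 ± 0.13 (SE) with one of 0.00708. With the block *Fasn* also passed in DESeq2 (adjusted p = 0.0119) and, in edgeR, without any single mouse (adjusted p from 0.00779 to 0.0124). It was the only one of the 5 genes for which leaving out each mouse kept the call. Each of those fits rests on only 2 mice, which makes it a weak check. The windows of *Fasn* are not shared with another gene. *Acaca*, the acetyl-CoA carboxylase that commits carbon to the pathway, was at 18.2, 19.3 and 21.8 CPM in control cells against 20.7, 26.7 and 25.9 CPM after NaCl. Its groups overlapped between control replicate 3 and NaCl replicate 1, its blocked log2 fold change was 0.30 ± 0.14 (SE, adjusted p = 0.206 by edgeR), and 26.8% of its windows also occur in other genes, chiefly *Gm5182*, which had 3 counts in all.

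The desaturases of polyunsaturated fatty acids were at 26.2 CPM per kilobase of exon for *Fads1* and 2.42 for *Fads2* in control, and 1 of the 2 passed with the block. *Fads2*, whose enzyme carries out the first desaturation step on essential fatty acids, was at 8.98, 6.61 and 8.32 CPM in control cells. After NaCl it was at 15.3, 11.5 and 13.2 CPM. No NaCl library overlapped with a control library, and the log2 ratio was 0.76, 0.78 and 0.65 in mice 1, 2 and 3. Without the block, edgeR put the log2 fold change at 0.74 ± 0.20 (SE) with an adjusted p of 0.161, and with it at 0.74 ± 0.17 (SE) with one of 0.00573, and 0.0649 and 0.048 were the adjusted p-values of DESeq2 without and with the block. Without mouse 1 the blocked edgeR fit gave an adjusted p of 0.0554, and without mouse 2 or 3 it gave 0.0037 and 0.0125. *Fads1*, which acts later in the same route and lies on the same chromosome, was at 128, 127 and 124 CPM in control cells against 144, 163 and 166 CPM after NaCl. These groups did not overlap either, but its log2 fold change of 0.32 ± 0.12 (SE) gave edgeR an adjusted p of 0.305 without the block and 0.0865 with it.

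The stearoyl-CoA desaturases, which make monounsaturated fatty acids, had estimates of opposite sign, and neither passed. *Scd2*, the main form in these cells, was at 44.3, 32.7 and 36.2 CPM in control cells against 40.8, 22.4 and 23.7 CPM after NaCl. It was lower in NaCl in each of the 3 mice, and its blocked log2 fold change of -0.41 ± 0.14 (SE) gave edgeR an adjusted p of 0.0587. *Scd1* had 4, 3 and 5 counts in control and 11, 8 and 3 counts in NaCl replicates 1, 2 and 3, or 0.326 ± 0.112 and 0.891 ± 0.293 CPM (SD, n = 3 each). Its log2 fold change of 1.52 ± 0.52 (SE) gave edgeR an adjusted p of 0.273 without the block. Per kilobase of exon *Scd1* was at 0.0667 CPM and *Scd2* at 6.91 CPM in control. Few of their windows are shared within the family, 3.15% for *Scd1* and 1.78% for *Scd2*. Among the elongases and the acyltransferase, *Elovl1*, *Elovl5*, *Elovl6* and *Lpcat3* had blocked log2 fold changes of 0.20, -0.05, 0.09 and 0.05, and edgeR's adjusted p-values ran from 0.387 for *Elovl1* to 0.877 for *Lpcat3*. *Lpcat3* places polyunsaturated chains into phospholipids, and 10.2% of its exonic bases overlap *Emg1* on the opposite strand. Over the arm the median log2 fold change without the block was 0.26, with 9 estimates above 0 and 3 below. All genes tested had 7820 estimates above 0 and 8083 below. In all 3 mice 6 genes of the arm (50%) were higher and 2 (16.7%) lower, where 20.1% and 23.4% of all genes tested were. The difference between the medians of the 2 arms was not tested.

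**Figure D3:**
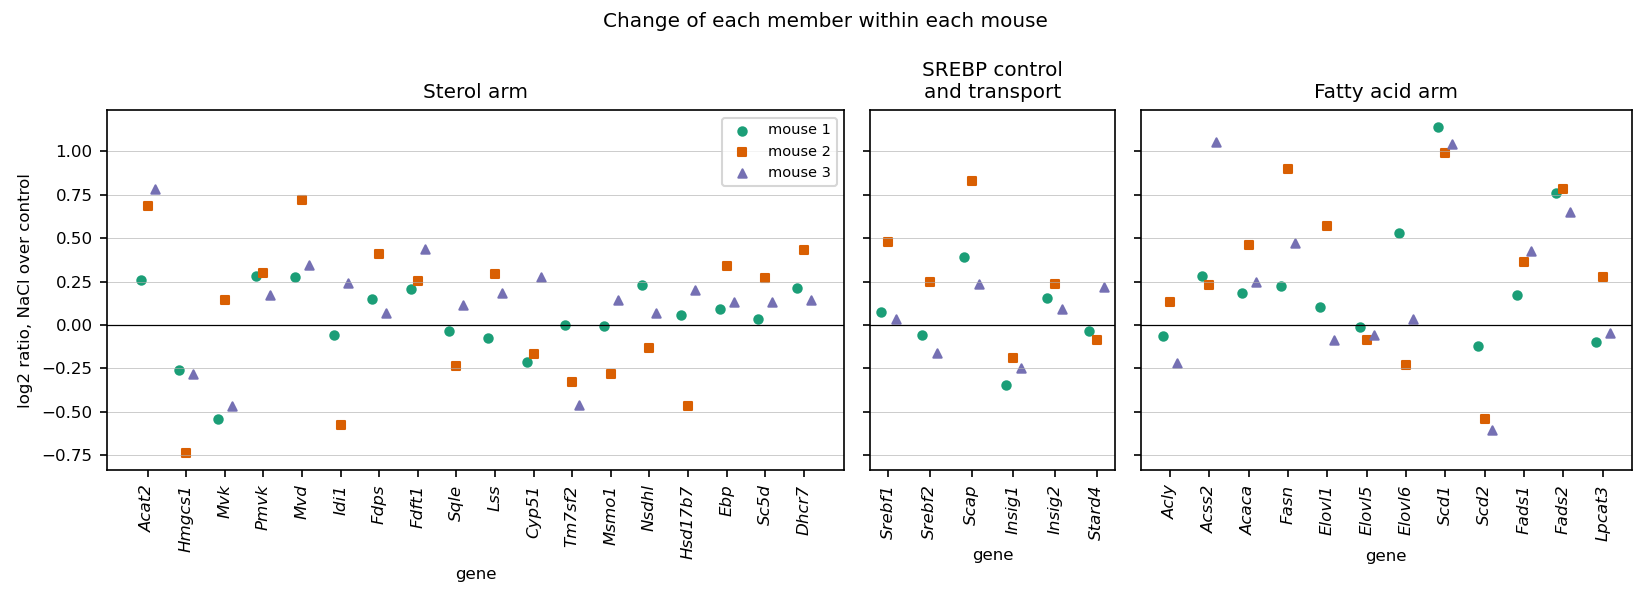
Log2 ratio of NaCl over control within mice 1, 2 and 3 for each gene (log2 CPM with a prior count of 2). The 3 points of *Fads2* lie between 0.65 and 0.78, those of *Fasn* spread from 0.22 to 0.90, and the points of *Mvk*, *Idi1*, *Sqle* and *Hsd17b7* fall on both sides of 0.

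The mice differed in how far these genes moved. The median log2 ratio over the 36 genes was 0.08 in mouse 1, 0.25 in mouse 2 and 0.14 in mouse 3, and over all genes tested it was -0.01, 0.00 and -0.04. Mouse 2 had the largest ratio for *Scap*, *Fasn*, *Mvd* and *Srebf1*, and also the lowest for *Hmgcs1*. In mouse 2 the ratio rose with the GC content of the transcript, with a Spearman coefficient of 0.297 across 15484 genes and 0.598 across the 36, against 0.0979 and 0.216 in mouse 1 and -0.145 and -0.0113 in mouse 3. These coefficients are across genes of one pair of libraries, which are not independent replicates. With trends on GC content and exonic length removed from each library and the block kept, the log2 fold change was 0.49 for *Fasn*, 0.46 for *Scap*, 0.70 for *Fads2*, 0.58 for *Acat2* and -0.35 for *Hmgcs1*. For these genes edgeR's adjusted p-values in that fit ran from 0.00124 for *Fasn* to 0.0234 for *Hmgcs1*. That fit also called more of all genes tested in each direction than the block alone, which called 4.6% higher and 4.3% lower.

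Other genes of these pathways were taken from 4 lists of 62 genes in all, of which 55 were tested. Their median log2 fold change without the block was -0.08. With the block 1 gene was higher and 5 were lower, or 1.82% and 9.09% of the 55. Over all genes tested, that fit called 4.6% higher and 4.3% lower. *Cyb5a*, cytochrome b5, which donates electrons to desaturases and sterol oxidases, was at 114, 118 and 122 CPM in control cells against 202, 177 and 208 CPM after NaCl, with no overlap. Of the members and these 4 lists it was the only gene past the threshold in edgeR without the block at the count minimum of 10, with a log2 fold change of 0.73 ± 0.12 (SE, adjusted p = 0.0384 by edgeR). When 1 library was left out, the unblocked test kept this call only without NaCl replicate 2. With the block *Cyb5a* had an adjusted p of 0.000126 in edgeR, and it passed without any single mouse. DESeq2 without the block also called it (adjusted p = 4.54e-05). *Por*, the reductase that feeds cytochrome P450 enzymes such as CYP51, was at 512 ± 85.1 CPM in control cells against 328 ± 84.1 CPM after NaCl (SD, n = 3 each), and its blocked log2 fold change was -0.66 ± 0.13 (SE, adjusted p = 0.000996 by edgeR), or 0.052 as an adjusted p without mouse 3. *Pgrmc1*, a haem protein of the endoplasmic reticulum listed with the SREBP genes, fell with the block from 117 ± 16.5 to 80.6 ± 5.38 CPM, or -0.53 on the log2 scale (adjusted p = 0.00606, edgeR). It passed without any single mouse, and also in DESeq2 without the block (adjusted p = 0.0487).

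*Acat1*, the mitochondrial thiolase, fell with the block from 51.6 ± 0.664 to 39.5 ± 0.142 CPM (adjusted p = 0.0468, edgeR), and only the fit without mouse 2 kept it (0.0396). *Hacd4*, a dehydratase of fatty acid elongation, fell with the block by 0.69 on the log2 scale (adjusted p = 0.000977, edgeR), and its control libraries were at 160, 62.6 and 58.7 CPM, so mouse 1 stood apart in both groups. *Cbr4*, a reductase of mitochondrial fatty acid synthesis, fell with the block from 14.6 ± 1.30 to 9.22 ± 2.18 CPM (adjusted p = 0.0139, edgeR), and passed without mouse 2 but not without mouse 1 or 3 (0.056 and 0.101). By list, 0 of 14 isoprenoid genes passed with the block, and 1 of 10 other sterol genes was higher and 2 were lower. Of 9 SREBP processing and turnover genes 1 was lower, and of 22 other fatty acid genes 2 were lower. The same fit called 4.6% of all genes tested higher and 4.3% lower, and these lists are short.

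**Figure D4:**
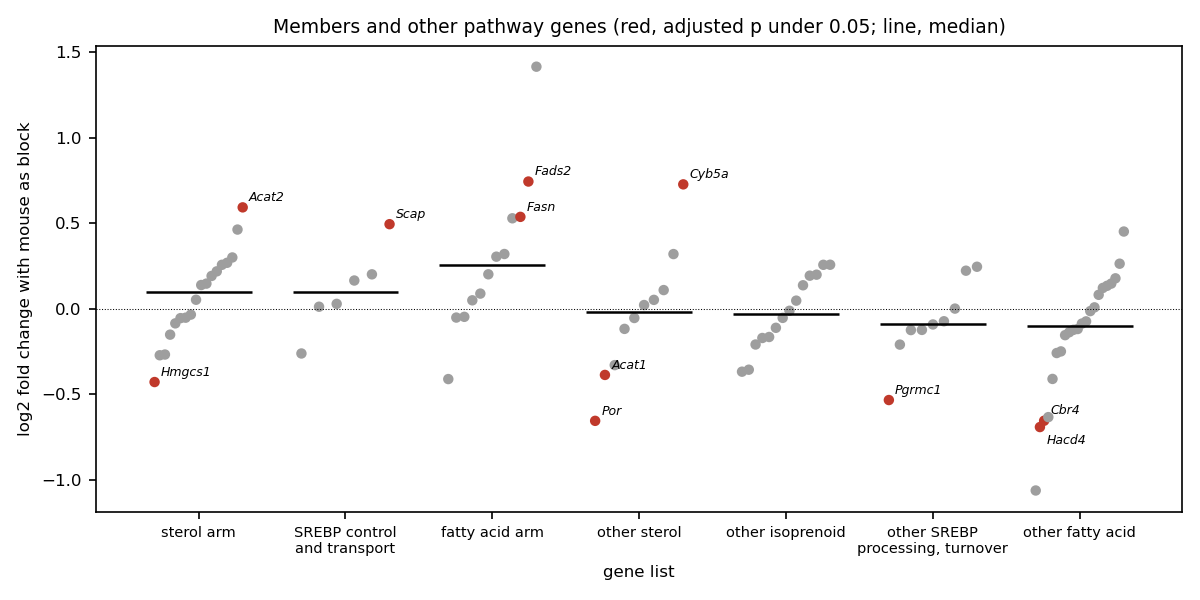
Log2 fold change with the mouse as a replicate block for the 3 groups of members and the 4 lists of other pathway genes, each point a gene, red where the adjusted p is under 0.05 and with a line at the list median. The medians lie between -0.10 for the other fatty acid genes and 0.25 for the fatty acid arm, and 11 points are red.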

How the data were processed

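RNA from 3 control and 3 NaCl-treated BMDM libraries was sequenced by the study as 75-base single-end reads without strand information. Per the methods, reads were trimmed with fastp 0.20.0, aligned with STAR 2.7.10b to mm10 with GENCODE vM32 genes, and counted per gene, and the authors deposited these raw counts together with the same counts divided by DESeq2 1.40.2 size factors as a normalized signal. GENCODE vM32 belongs to a later build than mm10, so no deposited gene coordinates were used. Gene symbols and chromosomes came from the annotation given with the normalized signal, and the signal itself was used for no level or test.

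Following the study, only genes whose counts summed to 10 or more entered the test, run on the raw counts with edgeR 4.0.16 (TMM, glmQLFit, glmQLFTest) under R 4.3.3, NaCl against control without a further term, as the study's methods name none, and p-values were adjusted over 15903 genes by the Benjamini-Hochberg method. Standard errors are the log2 fold change over the root of F, and 95% intervals use the moderated degrees of freedom. CPM, the count relative to the TMM-scaled library size, is given as the level. The labels give the same 3 mice in both groups, so the mouse pairs the samples and the blocked fit is given wherever it changes a call. Across genes, deviations from the group means correlated at 0.426, 0.151 and 0.217 for the 2 libraries of mouse 1, 2 and 3. Between libraries of different mice these correlations ran from -0.350 to 0.124, so the pair of mouse 2 stood little above the highest of them.

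The members and lists were chosen with earlier results of these data known. Every member is named, with values in every library for those past the threshold in either fit and for 10 regulators and rate-limiting enzymes, and the other pathway genes are named only where past it. Alternatives were DESeq2 1.42.0 without and with the block, limma-voom (limma 3.58.1), other scalings and filters, the block and leaving out each library. Leaving out each mouse, and loess trends (span 0.5) on GC content and exonic length, were added after the data were seen. Lengths, overlaps and shared 75-base windows came from GENCODE M21 (97.4% of genes tested matched). The scripts were tested on simulated data.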

Additional observations from a re-analysis of the deposited data

How the results depend on the processing

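Of the 36 genes, 24 kept the sign of their log2 fold change in all 18 alternatives, and 8 passed the threshold in at least 1 of them. The sterol arm had 0 genes higher and 0 lower in edgeR without the block, against 1 and 1 with the replicate block in edgeR but 0 and 0 with the block in DESeq2, 1 higher with the block and without mouse 1, 1 lower with the block and without mouse 3, and 2 higher and 1 lower with the block and the GC and length trends, where *Mvd* joined *Acat2*. SREBP control and transport had 0 genes higher, against 1 with the replicate block under edgeR or DESeq2, 1 with the block and without mouse 3, and 1 with the trends. The fatty acid arm had 0 genes higher, against 2 with the replicate block under either tool, 1 at a minimum total count of 1 (*Fasn*, adjusted p = 0.0271 in edgeR), 1, 3 and 2 with the block and without mouse 1, 2 and 3, and 3 with the trends, where *Fads1* was the third as it was without mouse 2, and which also gave 1 lower, *Scd2*. Leaving out each library without the block gave 0 calls among 216 fits of a member.

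The other pathway genes had 1 higher and 0 lower, against 3 higher with the block without mouse 2 and with the trends, and 1 lower in DESeq2, 5 with the replicate block, 3 with DESeq2 and the block, 3 with a minimum total count of 1, 3, 5 and 2 with the block without mouse 1, 2 and 3, and 7 with the trends. Without 1 library from 0 to 1 were higher. All genes gave 76 higher and 28 lower, against 245 and 155 in DESeq2, 732 and 684 with the replicate block, 452 and 354 in DESeq2 with the block, 362 and 300 with a minimum total count of 1, 469 and 417, 758 and 661, and 715 and 585 with the block without mouse 1, 2 and 3, and 1213 and 1080 with the trends. With a library left out, the higher counts ranged from 8 to 123 and the lower ones from 0 to 46. Limma-voom, filterByExpr and scaling by median ratios or by total counts kept every such count within 1.5 times, and the 2 scalings moved the median of all genes by 0.01 and 0.00 on the log2 scale. The cause of these differences was not tested. The 4088065 counts of NaCl replicate 3 limit what can be said of genes as low as *Scd1*.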
